A study of Lachancea kluyveri with 31 samples.

Results

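The 128 genes that lie nearest to the ends of chromosomes B to H of the yeast *Lachancea kluyveri* were compared across 4 strains and 2 iron levels, among 5316 genes on the array. Genes are numbered along each chromosome, and the sixth character of a systematic name gives the chromosome. The 10 lowest and the 10 highest numbered genes of each of these 7 chromosomes were taken, which gives 140 genes at 14 ends. Of these, 12 have only probes whose names mark cross-hybridization, and they were left out. Chromosome A was left out because it was raised as a whole in *aft1*Δ cells. No measured value of the genes chosen was used in the rule. Each chromosome contributed 16 to 20 genes, 37 of the 128 carry a gene name in the study's tables, and 53 carry an annotation note. Rank 1 below is the outermost gene of an end on the array, and the rank counts genes, not bases.

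Cells of 3 deletion strains, *sef1*Δ*aft1*Δ, *aft1*Δ and *sef1*Δ, and of wild type (WT, a haploid *ura3* strain) were grown at low or at high iron. The double mutant was made from the *sef1*Δ strain, and each strain was 1 clone, so that a change may belong to the clone as well as to the deletion. Low iron was YPD with the ferrous chelator BPS and high iron was YPD with added ferrous iron, at doses of 200 and 400 whose unit is mM in the sample labels and µM in the paper. RNA was taken after 5.5 h at 30°C, and each of the 8 groups had 4 arrays except *sef1*Δ at high iron, which had 3, for 31 arrays in all.

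In *Saccharomyces cerevisiae*, genes beside the telomeres are kept low by Rap1, which binds the telomere repeats, and by the Sir2, Sir3 and Sir4 proteins that it brings to the chromosome end. Families of genes for nutrient uptake, sugar use and cell adhesion are gathered there and differ between strains. Aft1 is the activator of iron uptake genes in *S. cerevisiae*, and Sef1 is a zinc cluster transcription factor that activates iron uptake in *Candida albicans*.

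Values are normalized signals, that is, the log2 of the spot intensity minus the log2 of the array's 75th percentile, from 1 probe for each gene. The 75th percentile was 10420 to 23266 intensity units, and 97.8% to 99.7% of the probes of an array were well above background, so precision is limited by how many arrays there were. The deleted genes were at or near background in their mutants. No *sef1*Δ*aft1*Δ or *aft1*Δ array had *AFT1* (SAKL0A04532g) well above background, while it averaged −1.01 ± 0.13 in WT at low iron (SD, n = 4). *SEF1* (SAKL0F12342g) averaged −6.65 ± 0.50 in *sef1*Δ*aft1*Δ and −7.00 ± 0.23 in *sef1*Δ at low iron, against −2.05 ± 0.12 in WT (SD, n = 4 each). Every strain had a slide to itself, and the scan session of the WT slide was not that of the mutant slides, so the difference of a mutant from WT cannot be told apart from slide or scan session. Within a strain both iron levels shared a slide. A slide offset therefore drops out of the iron response and of the interaction, which is the iron response of a mutant minus that of WT. Low-iron arrays were all in the other row of the slide than high-iron arrays, so iron and row cannot be told apart. All comparisons of mutants with WT at one iron level share the same 4 WT arrays.

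Fewer of the end genes could be measured everywhere. Of the 128 genes, 105 (82%) were well above background on all 31 arrays, 21 on some arrays and 2 on none, whereas 98% of all genes were well above background on every array. The arrays of a group also scattered more for these genes, with a median within-group SD of 0.199 against 0.164 over all genes, and 0.180 against 0.163 where only genes measured on every array were taken. Counts below are therefore also given for the 105 genes where they matter.

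The end genes changed most often between the mutants and WT. A gene was called changed when its fold change reached 1.5 and its adjusted p (limma, Benjamini-Hochberg over all genes) was 0.05 or less. At low iron, 65 end genes (50.8%) were called in *sef1*Δ*aft1*Δ against WT, where 31.6% of all genes were called. Of these 46 were higher (18% of all genes were) and 19 lower (13.5% of all genes). In *aft1*Δ 67 end genes (52.3%, against 41% of all genes) were called, 37 of them higher (22.1% of all genes) and 30 lower (18.9%). In *sef1*Δ 53 (41.4%, against 21.6%) were called, 10 of them higher (10.2% of all genes) and 43 lower (11.4%). The share of end genes called was thus above that of all genes in each mutant, mostly through higher calls in *sef1*Δ*aft1*Δ and through lower calls in *sef1*Δ. Among the 105 genes measured on every array, 51 were called in *sef1*Δ*aft1*Δ (48.6%, against 31.1% of all such genes) and 40 in *sef1*Δ (38.1%, against 21.1%). In *aft1*Δ 54 of the 105 were called (51.4%, against 40.8%). Of these 54 genes 25 were higher (23.8%, against 21.9%) and 29 lower (27.6%, against 18.9%).

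High iron gave lower counts in the same directions. In *sef1*Δ*aft1*Δ 46 end genes (35.9%, against 26.8% of all genes) were called, 32 higher (17.1% of all genes) and 14 lower (9.77%). In *aft1*Δ 54 (42.2%, against 31.5%) were called, 33 higher (17.6% of all genes) and 21 lower (13.9%). In *sef1*Δ 38 (29.7%, against 17.8%) were called, 6 higher (8.06% of all genes) and 32 lower (9.79%). Of the 46 genes called in *sef1*Δ*aft1*Δ, 2 were not well above background in either group. Among the 105 genes measured on every array, 30 were called in *sef1*Δ*aft1*Δ, near the share of all such genes (28.6%, against 26.4%). There *aft1*Δ had 40 (38.1%, against 31.2%) and *sef1*Δ 26 (24.8%, against 17.4%). Because chromosome A was raised in *aft1*Δ and holds no end gene here, the genes of chromosomes B to H are the closer background for that strain. Of those, 38.1% were called in *aft1*Δ at low iron (17.8% higher, 20.4% lower) and 28.1% at high iron (13% higher, 15.1% lower).

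Fewer end genes responded to iron within a strain. For low against high iron 30 end genes (23.4%, against 14.7% of all genes) were called in *sef1*Δ*aft1*Δ, 22 higher (7.15% of all genes) and 8 lower (7.51%). In *aft1*Δ 17 (13.3%, against 3.42%) were called, 10 higher (1.5% of all genes) and 7 lower (1.92%). In *sef1*Δ 17 (13.3%, against 5.85%) were called, 8 higher (3.31% of all genes) and 9 lower (2.54%). In WT 11 (8.59%, against 4.71%) were called, 6 higher (2.8% of all genes) and 5 lower (1.9%). These counts include 1 gene in *sef1*Δ*aft1*Δ, 3 in *aft1*Δ, 3 in *sef1*Δ and 2 in WT that were not well above background in either group, and no fold change is given for such genes. Among the 105 genes measured on every array, 9 were called in *aft1*Δ (8.57%, against 3.21% of all such genes). Of these 2 were higher (1.9%, against 1.34%) and 7 lower (6.67%, against 1.86%). There 11 were called in *sef1*Δ (10.5%, against 5.68%) and 8 in WT (7.62%, against 4.36%).

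The interaction called 31 end genes (24.2%, against 13.6% of all genes) in *sef1*Δ*aft1*Δ, 21 higher (6.57% of all genes) and 10 lower (7.06%). It called 10 (7.81%, against 5.67%) in *aft1*Δ, 6 higher (2.22% of all genes) and 4 lower (3.45%). Among genes measured on every array these 10 became 6 (5.71%, against 5.55% of all such genes). In *sef1*Δ the interaction called 5 end genes (3.91%, against 2.88%), 0 higher (1.43% of all genes) and 5 lower (1.45%). This last count ranged from 2 to 8 when single arrays were left out. It was 2 without WT high replicate 1, *sef1*Δ high replicate 2 or 3, or *sef1*Δ low replicate 4, and 3 without WT high replicate 3 or 4, WT low replicate 2, *sef1*Δ high replicate 1 or *sef1*Δ low replicate 3. Without *sef1*Δ low replicate 1 it was 8. Leaving out *sef1*Δ high replicate 2 left 10 calls in the *sef1*Δ iron response.

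**Figure D1:**
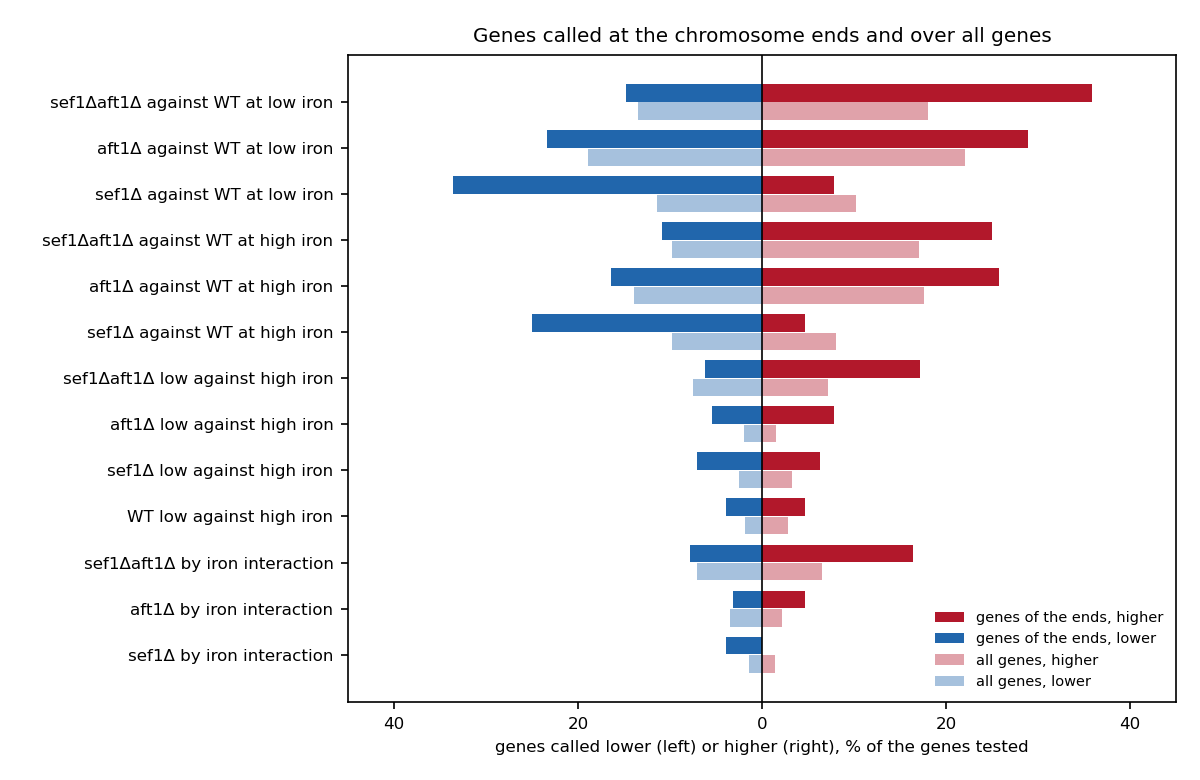
Percentage of genes called higher (right of 0) and lower (left of 0) in each of the 13 comparisons, for the 128 genes at the chromosome ends and for all 5316 genes. In *sef1*Δ against WT at low iron 33.6% of the end genes were lower against 11.4% of all genes, and in *sef1*Δ*aft1*Δ against WT at low iron 35.9% were higher against 18% of all genes.

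Over the 13 comparisons, 102 end genes (79.7%, against 66.3% of all genes) were called at least once and 27 (21.1%, against 11.9%) in 6 or more. The 26 genes never called include *CHA1*, which encodes an enzyme that breaks down serine and threonine, *KEX2*, which encodes a processing protease, and *SCW4*, which encodes a cell wall protein. The genes called in 9 or 10 comparisons were SAKL0B00154g, SAKL0D15224g, *ARN4* and *HXT2* (10 each) and *SUC2*, SAKL0B00286g, SAKL0B12606g, SAKL0C14080g, SAKL0D15202g and SAKL0H26180g (9 each). They lie at 7 ends of 6 chromosomes and are described below with *FET2* and *ARN3*, the other end genes noted as similar to genes of iron uptake.

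In WT, the largest iron response among end genes with a measurable signal was that of *HXT2* (SAKL0G19844g, right end of G, rank 4), which encodes a high-affinity glucose transporter. The WT signals were 1.28, 1.80, 1.87 and 1.21 at low iron, against −0.20, −0.38, 0.00 and −0.17 at high iron. The low-iron arrays lay above all high-iron arrays, with a log2 fold change of 1.72 ± 0.14 (SE, adjusted p = 4.94e-11), or 3.3-fold. In *aft1*Δ the signals were 3.17, 3.31, 3.18 and 3.64 at low iron, against 3.04, 3.16, 2.91 and 3.29 at high iron. These 2 groups overlapped, and the iron response of 0.23 missed the threshold (adjusted p = 0.333). Both *aft1*Δ groups lay above every WT array, by 1.79 at low iron (3.46-fold, adjusted p = 2.09e-12) and by 3.28 at high iron (9.73-fold, adjusted p = 1.03e-17). The response in *aft1*Δ was smaller than in WT by 1.49 on the log2 scale (interaction −1.49 ± 0.20, adjusted p = 2.45e-06). *HXT2* rose at low iron in *sef1*Δ also, with 1.93, 1.80, 2.17 and 1.79 at low iron against 0.65, 0.56 and 0.58 at high iron, a log2 fold change of 1.33 (2.51-fold, adjusted p = 8.17e-08). In *sef1*Δ*aft1*Δ the signals were 2.30, 2.34, 2.20 and 2.78 at low iron, against 1.90, 1.84, 1.70 and 1.73 at high iron. The groups did not overlap, but the difference was only 0.61 (1.53-fold, adjusted p = 0.00065), and the interaction was −1.11 (adjusted p = 9.54e-05). With the gene's other probe, *HXT2* in *sef1*Δ*aft1*Δ against WT at low iron was 0.29 instead of 0.87 and was not called.

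The other measurable end genes called in WT changed less. SAKL0F16676g, a gene with no similarity to known proteins at the right end of F, rose by 0.77 at low iron (adjusted p = 3.78e-07). *PUG1* (SAKL0C00220g), whose *S. cerevisiae* relative acts in protoporphyrin and heme transport, fell by 0.80 in WT (adjusted p = 0.00583). Its log2 fold change was −1.13 in *sef1*Δ*aft1*Δ (adjusted p = 3.54e-05), −0.72 in *aft1*Δ (adjusted p = 0.0184) and −1.11 in *sef1*Δ (adjusted p = 0.000447), so it was called lower at low iron in each strain. *ADH4* (SAKL0C13926g), an alcohol dehydrogenase gene whose note mentions iron only for related enzymes, fell by 0.76 (adjusted p = 0.00345), and *FLO9* (SAKL0E15378g), which is named for a lectin-like flocculation protein, by 0.64 (adjusted p = 0.00452). The WT falls of *PUG1*, *ADH4* and *FLO9* did not reach the threshold with the other probe of each gene (−0.54, −0.50 and −0.38). Some calls rest on few arrays. SAKL0G19910g, similar to a *FLO9* gene, rose by 0.93 with 2 of the 4 low-iron arrays used and had 0.27 without WT low replicate 3. SAKL0B12760g, measured on 1 of 4 low-iron arrays, was at least 1.75-fold lower at low iron (fitted −1.26) and had −0.74, not called, without WT high replicate 3.

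The end genes similar to genes of iron uptake did not move together. Of the study's list of 29 iron-uptake genes, which was chosen on these arrays, all 29 were called higher at low iron in WT, but 1 alone, *ARN3*, is among the end genes. *FET2* (SAKL0H26202g, right end of H, rank 3) is weakly similar to the ferroxidase gene *FET3* of *S. cerevisiae*, whose product oxidizes iron as it is taken up. At low iron its signals were −4.03, −4.62, −4.71 and −5.25 in *sef1*Δ*aft1*Δ, −1.71, −1.96, −1.69 and −2.09 in *aft1*Δ, and −4.20, −5.53, −5.39 and −5.37 in *sef1*Δ, against −3.05, −2.35, −1.94 and −3.36 in WT. At high iron they were −2.41, −2.57, −3.20 and −2.69 in *sef1*Δ*aft1*Δ, −1.21, −1.25, −1.26 and −1.65 in *aft1*Δ, and −3.58, −3.49 and −3.05 in *sef1*Δ, against −3.30, −3.19, −2.92 and −3.17 in WT. Both strains without *SEF1* lay below all WT arrays at low iron and overlapped them at high iron, while *aft1*Δ had the highest mean at both iron levels. The fold change against WT at low iron was −2.45 ± 0.27 in *sef1*Δ (5.46-fold lower, adjusted p = 8.94e-09) and −1.98 in *sef1*Δ*aft1*Δ (3.93-fold lower, adjusted p = 1.98e-07). In WT *FET2* did not pass the test for iron (0.47, adjusted p = 0.254), whereas it fell by 1.75 in *sef1*Δ (adjusted p = 4.52e-05) and by 1.93 in *sef1*Δ*aft1*Δ (adjusted p = 8.76e-07). The interactions were −2.22 ± 0.39 in *sef1*Δ (adjusted p = 0.00149) and −2.40 ± 0.37 in *sef1*Δ*aft1*Δ (adjusted p = 1.91e-05). In *aft1*Δ *FET2* was higher than in WT by 1.80 at high iron (3.48-fold, adjusted p = 9.08e-07), and by 0.81 at low iron, where the arrays overlapped and the call was lost without WT low replicate 4 (0.58).

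The gene beside it, SAKL0H26180g (right end of H, rank 4), encodes a conserved protein of unknown function. Its low-iron signals were −2.84, −3.74, −3.83 and −4.07 in *sef1*Δ*aft1*Δ, −0.96, −1.41, −1.01 and −1.46 in *aft1*Δ, and −3.53, −4.51, −4.44 and −4.60 in *sef1*Δ, against −1.25, −0.68 and −1.87 on the 3 WT arrays used. At high iron the signals were −0.97, −1.52, −1.97 and −1.59 in *sef1*Δ*aft1*Δ, −0.02, −0.13, −0.05 and −0.26 in *aft1*Δ, and −2.30, −2.34 and −2.34 in *sef1*Δ, against −1.24, −1.05, −1.11 and −1.63 in WT. Again both strains without *SEF1* lay far below WT at low iron, and *aft1*Δ lay above WT at high iron. SAKL0H26180g was 8.01-fold lower in *sef1*Δ (−3.00 ± 0.26, adjusted p = 2.65e-10) and 5.1-fold lower in *sef1*Δ*aft1*Δ (−2.35, adjusted p = 1.07e-08) than in WT at low iron. Its interactions were −1.93 ± 0.37 in *sef1*Δ (adjusted p = 0.00429) and −2.10 ± 0.36 in *sef1*Δ*aft1*Δ (adjusted p = 7.88e-05), and in WT low and high iron differed by −0.01 (adjusted p = 0.982). The other probes of *FET2* and SAKL0H26180g gave the same direction and call in each of these interactions.

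*ARN4* (SAKL0E00132g, left end of E, rank 2) is similar to the siderophore transporter gene *ARN2* of *S. cerevisiae*, whose product takes up iron bound to the chelators that microbes release. Its low-iron signals were −2.01, −3.14, −3.03 and −2.63 in *sef1*Δ*aft1*Δ, −5.47, −5.73, −5.27 and −5.36 in *aft1*Δ, and −5.38, −5.84, −6.05 and −6.25 in *sef1*Δ, against −3.61, −3.67, −3.95 and −4.02 in WT. The single mutants lay below and the double mutant above every WT array. With this probe *ARN4* was lower than in WT by 1.64 in *aft1*Δ (3.12-fold, adjusted p = 4.44e-08) and by 2.07 in *sef1*Δ (4.19-fold, adjusted p = 2.19e-09), and higher by 1.11 in *sef1*Δ*aft1*Δ (2.16-fold, adjusted p = 3.24e-05). The probes disagreed on the single mutants, since the other probe gave 0.02 in *aft1*Δ and −0.42 in *sef1*Δ, neither of them called, and 2.81 in *sef1*Δ*aft1*Δ. At high iron the double mutant was higher than WT by 1.91 (adjusted p = 7.97e-09) and by 3.02 with the other probe, and in WT *ARN4* rose at low iron by 0.70 (1.63-fold, adjusted p = 0.0203) with the probe used and by 0.05 with the other. *ARN3* (SAKL0F00110g, left end of F, rank 1), also similar to *ARN2*, stayed at background on all 31 arrays and has no fold change.

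In *sef1*Δ more end genes were called lower than higher, most clearly at low iron. At low iron 43 were called lower and 10 higher, and the median log2 fold change of the 128 genes was −0.28, whereas that of all genes was −0.005. At high iron 32 were lower and 6 higher, with a median of −0.18 against 0.010 over all genes. The difference between the 2 medians at low iron was −0.41 to −0.23 over 11 ways of scaling and choosing values. At high iron this difference was −0.205 to −0.155 over the same settings. Scaling to each array's median gave 4 higher and 51 lower at low iron (7.17% and 15.6% of all genes). The other probe of each gene gave 16 higher and 37 lower at low iron (24.4% and 5.71% of all genes). At high iron it gave 19 higher and 23 lower (23.4% and 4.45% of all genes). There the median of the end genes was 0.07 and that of all genes 0.25. The sign of the end genes' median at high iron thus depends on the probe, while it lay below that of all genes with either probe. Among the 105 genes measured on every array, 33 (31.4%, against 11% of all such genes) were lower and 7 higher at low iron.

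The genes that fell in *sef1*Δ include several that were also lower in the other mutants. SAKL0B00132g (left end of B, rank 2) was 5.25-fold lower in *sef1*Δ at low iron (−2.39, adjusted p = 9.09e-12), and its log2 fold change was −1.59 in *sef1*Δ*aft1*Δ and −2.08 in *aft1*Δ. SAKL0E00396g (left end of E, rank 8) was 5.92-fold lower in *sef1*Δ (−2.57, adjusted p = 2.79e-09), with −1.33 in *sef1*Δ*aft1*Δ and −2.15 in *aft1*Δ. Neither gene has an annotation in the tables used. SAKL0C14080g (right end of C, rank 1) had low-iron signals of −3.02, −3.28, −3.94 and −3.89 in *sef1*Δ*aft1*Δ, −1.82, −2.81, −3.01 and −2.88 in *aft1*Δ, and −2.58, −2.41, −3.06 and −2.92 in *sef1*Δ, against −0.93, −0.82, −0.62 and −0.40 in WT. Every array of every mutant lay below the WT arrays. The fold change was −2.84 ± 0.24 in *sef1*Δ*aft1*Δ (7.15-fold lower, adjusted p = 3.27e-11), −1.94 in *aft1*Δ (3.83-fold lower, adjusted p = 3.42e-08) and −2.05 in *sef1*Δ (4.14-fold lower, adjusted p = 3.89e-08). At high iron it was −1.92, −1.05 and −1.68 in the same order, all called. Because these 3 comparisons share the WT arrays, they are not independent of each other.

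Genes named for transporters, enzymes and other functions were among those that fell in *sef1*Δ at low iron. *FEN2* (SAKL0E15290g), a pantothenate transporter gene, fell by 1.64 and *AGP3* (SAKL0C13992g), an amino acid permease gene, by 0.82. *DAL5* (SAKL0C00352g), named for an allantoate permease, fell by 1.09. *CYB2* (SAKL0F16610g), named for a lactate dehydrogenase, fell by 1.16, *LYS14* (SAKL0F16588g), named for an activator of lysine synthesis genes, by 1.1, and *STP4* (SAKL0H26224g, beside *FET2*) by 1.62. *POT1* (SAKL0E15246g), which encodes a thiolase of fatty acid oxidation, fell by 1.01. In contrast, *ERO1* (SAKL0D00308g), which encodes a thiol oxidase of protein folding, was higher by 0.83 (adjusted p = 3.73e-07) and SAKL0H26070g by 1.06 (adjusted p = 2.15e-09), and neither was called with its other probe (0.41 and 0.52).

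The share of genes lower in *sef1*Δ became smaller with distance from the chromosome end. At low iron it was 41.7% of the 60 genes at ranks 1 to 5, 26.5% of the 68 genes at ranks 6 to 10, 17.9% of the 140 genes at ranks 11 to 20, 9.86% of the 416 genes at ranks 21 to 50, and 10.5% of the genes farther inside. The median log2 fold changes in the same bins were −0.50, −0.19, −0.05, −0.02 and 0.002. The share of genes called higher in *sef1*Δ had no such order, with 8.33%, 7.35%, 10.7%, 8.89% and 10.5%. The shares lower at high iron were 35%, 16.2%, 14.3%, 7.45% and 9.56%. The share of genes that were not well above background on every array had a like order, with 28.3%, 8.82%, 5.71%, 1.44% and 1.47%, and among the genes measured on every array the shares lower in *sef1*Δ at low iron were 44.2%, 22.6%, 16.7%, 9.76% and 10.3%. The limit of 10 genes did not mark a step in these values. Of the 13 genes at rank 10, 4 were lower in *sef1*Δ at low iron (median −0.21), and of the 14 genes at rank 11, 3 were lower (median −0.22).

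**Figure D2:**
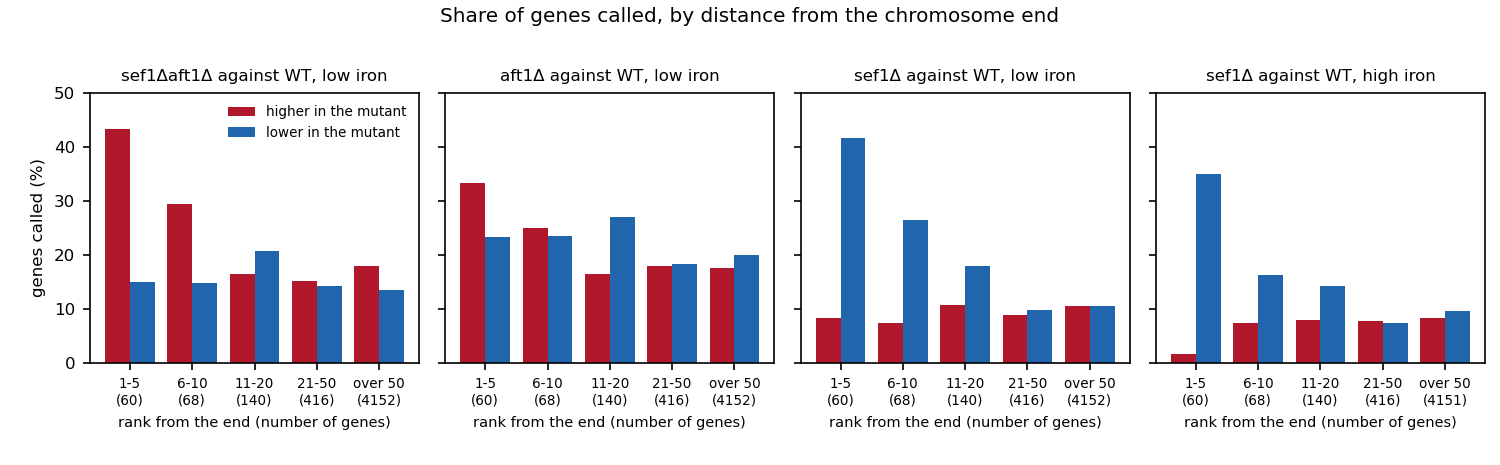
Percentage of genes called higher (red) or lower (blue) than in WT by rank from the chromosome end, on chromosomes B to H, for *sef1*Δ*aft1*Δ, *aft1*Δ and *sef1*Δ at low iron and *sef1*Δ at high iron. Bin sizes stand under the axis. At low iron the share lower in *sef1*Δ was 41.7% at ranks 1 to 5 and 10.5% beyond rank 50, and the share higher in *sef1*Δ*aft1*Δ was 43.3% and 18% in the same bins.

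The ends were not alike in *sef1*Δ. At low iron the median log2 fold change was below −0.5 at the left ends of B (−0.78, 8 genes), C (−0.53, 9 genes) and F (−0.60, 8 genes) and at the right ends of D (−0.56, 9 genes) and E (−0.54). Both end medians above 0 were left ends, those of D (0.03) and G (0.03). The medians of the next 50 genes inward lay between −0.12 and 0.10 at all 14 ends. The right end of E had the most calls lower, 5 of its genes against 1 higher.

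In *aft1*Δ the end genes moved in both directions. At low iron the median over the 128 genes was −0.03 against −0.02 over all genes. The split of calls depended on the scaling. As scaled here it was 37 higher and 30 lower (22.1% and 18.9% of all genes). With each array's median it was 25 and 38 (15.5% and 28.4% of all genes). With quantile normalization it was 27 and 39 (16.9% and 24.2% of all genes). The shares of all genes thus moved in the same directions. The split at high iron was 33 higher and 21 lower (17.6% and 13.9% of all genes). It was 25 and 33 with the array median (11.9% and 24.9%), and 24 and 33 with quantile normalization (12.5% and 18.9%). The array median moved the median of all genes in *aft1*Δ against WT at low iron by about −0.2, to −0.22. Both ends of B stood out in counts. Of the genes at the left end of B 5 were higher and 1 lower in *aft1*Δ (median 1.45, 8 genes), and at the right end of B 7 were higher and 0 lower (median 0.75). The left ends of F (median −0.42, 1 higher and 4 lower) and H (−0.45, 1 higher and 3 lower) had the lowest medians. By distance, the share higher was 33.3%, 25%, 16.4%, 18% and 17.5% from ranks 1 to 5 to the innermost bin, and the share lower was 23.3%, 23.5%, 27.1%, 18.3% and 20%. For genes measured on every array the shares higher were 27.9%, 21%, 16.7%, 18% and 17.5%. Their shares lower were 30.2%, 25.8%, 27.3%, 18% and 20%.

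Of the 4 sugar genes at the ends, 3 were higher and 0 lower in *aft1*Δ at each iron level. *SUC2* (SAKL0B00220g, left end of B, rank 6) encodes invertase, which splits sucrose. Its signals at low iron were −5.59, −4.89, −5.29 and −5.30 in *sef1*Δ*aft1*Δ, −1.40, −1.35, −0.78 and −0.41 in *aft1*Δ, and −5.61, −5.57, −5.39 and −5.30 in *sef1*Δ, against −3.17, −3.60, −3.46 and −3.52 in WT. At high iron they were −3.24, −2.61, −3.15 and −1.48 in *sef1*Δ*aft1*Δ, −0.08, 0.05, 0.17 and 0.19 in *aft1*Δ, and −3.48, −3.86 and −4.47 in *sef1*Δ, against −2.84, −2.81, −2.77 and −3.06 in WT. At both iron levels *aft1*Δ lay above and *sef1*Δ below all WT arrays, and the double mutant lay below WT at low iron and on both sides of it at high iron. *SUC2* was 5.48-fold higher than WT in *aft1*Δ at low iron (2.45 ± 0.25, adjusted p = 9.13e-10) and 7.75-fold higher at high iron (2.95, adjusted p = 3.71e-11). At low iron it was 4.09-fold lower in *sef1*Δ (−2.03, adjusted p = 1.08e-07) and 3.55-fold lower in *sef1*Δ*aft1*Δ (−1.83, adjusted p = 3.57e-07), with −0.76 and −1.09 by the other probe, both called. Low iron lowered *SUC2* 6.26-fold in *sef1*Δ*aft1*Δ (−2.65, adjusted p = 1.39e-09), against a WT difference of −0.57 (adjusted p = 0.144), and the interaction was −2.08 ± 0.36 (adjusted p = 7.59e-05).

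*HXT2* is described above, and *HXT8* (SAKL0C00154g, left end of C), named for a hexose transporter, was higher in *aft1*Δ by 1.03 at low and 1.24 at high iron, both called. The fourth sugar gene, *RGT2* (SAKL0B00264g), named for a glucose sensor, was not called in *aft1*Δ (−0.67 at low and −0.57 at high iron) and fell by 1.09 in *sef1*Δ at low iron. SAKL0H00176g (left end of H, rank 2), listed under the name *FLO1* but noted only as a conserved hypothetical protein, had low-iron signals of −2.64, −2.65, −2.64 and −2.68 in *sef1*Δ*aft1*Δ, −0.42, −0.30, −0.22 and −0.07 in *aft1*Δ, and −3.73, −3.66, −3.66 and −3.46 in *sef1*Δ, against −3.15, −3.56, −3.44 and −3.22 in WT. The *aft1*Δ arrays lay far above all others. The difference from WT was 3.09 ± 0.11 at low iron (8.49-fold, adjusted p = 1.65e-20) and 3.38 at high iron (10.4-fold, adjusted p = 5.45e-21). The rise of *FLO1* over WT at low iron was 0.69 in *sef1*Δ*aft1*Δ (adjusted p = 2.37e-06), and it was not called with quantile normalization (0.34), the array median (0.54) or normexp (0.37). *FLO9* at the right end of E was 5.64-fold higher in *aft1*Δ at low iron (2.50, adjusted p = 1.54e-14) and higher by 2.13 at high iron. A second gene named *FLO1*, SAKL0D00176g, was called in none of the comparisons with WT, with −0.37 at low and 0.13 at high iron in *aft1*Δ. *ERO1* rose 4.07-fold in *aft1*Δ at low iron (2.03, adjusted p = 9.66e-16), and *ADH6* (SAKL0C00264g), named for an alcohol dehydrogenase, by 1.89. Among the genes that fell, SAKL0F00330g, similar to the *MCH4* transporter gene, changed by −1.69 (adjusted p = 5.84e-15), and SAKL0C00308g, similar to a vacuolar carboxypeptidase gene, by −1.62.

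**Figure D3:**
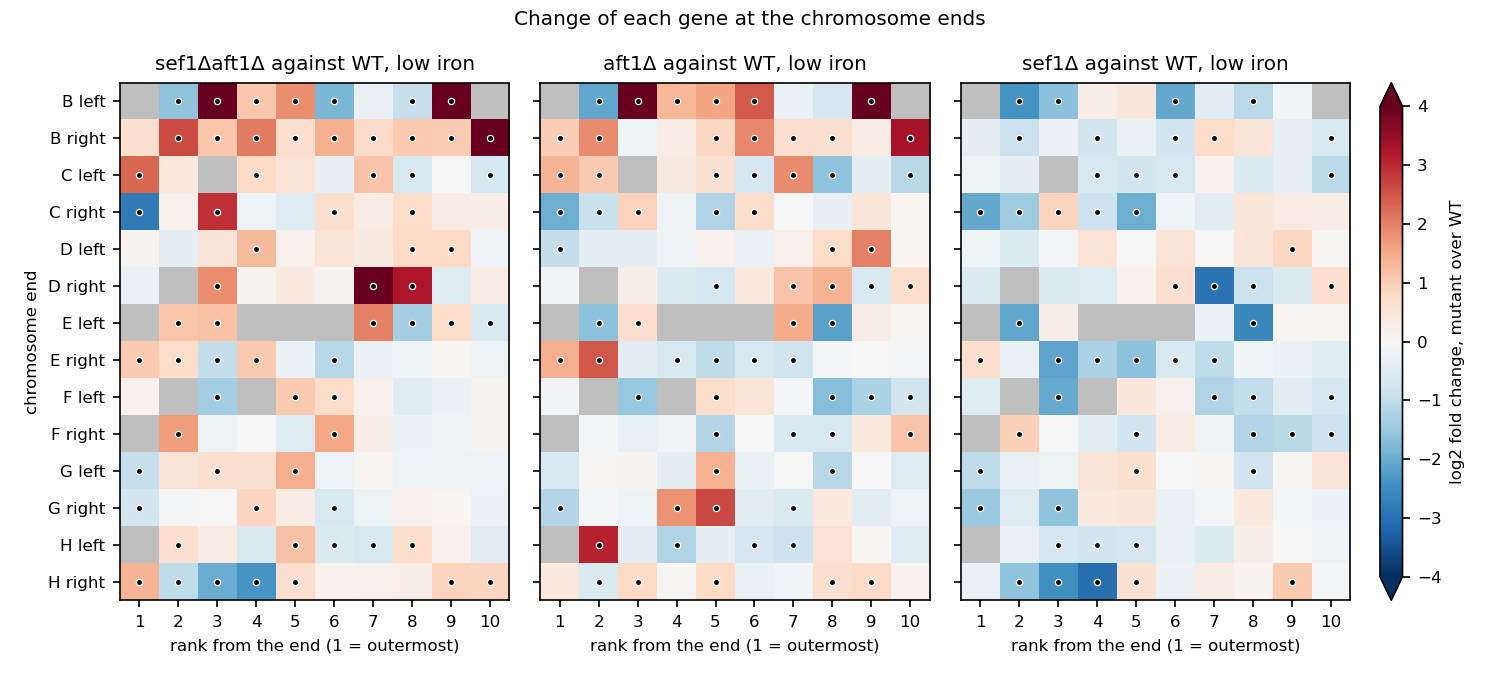
Log2 fold change of each end gene at low iron against WT, for *sef1*Δ*aft1*Δ (left), *aft1*Δ (middle) and *sef1*Δ (right), with a row for each of 14 ends and a column for each rank from the end. Colors stop at 4 in either direction, although the largest value is 6.95. Dots mark called genes and gray cells the 12 genes left out. Both ends of B are mostly red in *aft1*Δ and *sef1*Δ*aft1*Δ, and blue cells with dots prevail in *sef1*Δ.

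In *sef1*Δ*aft1*Δ the end genes were mainly higher than in WT. The median log2 fold change at low iron was 0.18, against 0.01 over all genes, and 46 genes were higher and 19 lower. The split was 37 and 24 with the array median (12.9% and 19.9% of all genes) and 35 and 23 with quantile normalization (12.5% and 18.1%). With the other probe it was 54 and 15 (30.4% and 8.48%). At high iron 32 were higher and 14 lower (17.1% and 9.77% of all genes). This became 29 and 21 with the array median (10.9% and 18%) and 18 and 22 with quantile normalization (8.75% and 14.2%). Which direction had more calls at high iron thus depends on the scaling, which moved the shares of all genes too. The median of the end genes minus that of all genes was 0.003 to 0.137 over 11 ways of scaling and choosing values. The share of genes higher at low iron was 43.3% at ranks 1 to 5, 29.4% at ranks 6 to 10, 16.4% at ranks 11 to 20, 15.1% at ranks 21 to 50 and 18% farther inside. For genes measured on every array the same shares were 39.5%, 25.8%, 15.2%, 15.1% and 17.7%. At rank 10 and at rank 11 the same number of genes, 2, was higher.

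The right end of B had 9 genes higher and 0 lower in *sef1*Δ*aft1*Δ at low iron (median 1.08), the left end of E had a median of 0.93 (4 higher, 2 lower), and the right end of E had the lowest median, −0.17. Medians of the next 50 genes inward were −0.19 to 0.26. Without the 18 genes of chromosome B, 110 end genes remain, and shares of all genes off that chromosome, chromosome A included, stand beside them. At low iron 33 (30%, against 17.8%) were higher and 16 (14.5%, against 13.3%) lower in *sef1*Δ*aft1*Δ. In *aft1*Δ 25 (22.7%, against 22.2%) were higher and 29 (26.4%, against 18.9%) lower. In *sef1*Δ 9 (8.18%, against 9.95%) were higher and 35 (31.8%, against 11.4%) lower. Chromosome B was chosen for this after the values were seen.

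The largest fitted difference at a chromosome end was that of SAKL0B00154g (left end of B, rank 3), which encodes a conserved protein of unknown function. Its low-iron signals were 0.26, −0.59, −0.74 and 1.80 in *sef1*Δ*aft1*Δ and −1.55, −2.12, −1.26 and −1.48 in *aft1*Δ, against −7.46, −6.32, −7.67 and −5.62 in WT, where it was well above background on 1 of 4 arrays. At high iron they were −3.89, −4.39, −4.25 and −3.58 in *sef1*Δ*aft1*Δ and −3.65, −3.79, −3.00 and −3.67 in *aft1*Δ, against −6.43, −6.02, −6.40 and −6.86 in WT. Both strains without *AFT1* lay above every WT array, and more so at low iron. SAKL0B00154g was at least 99.2-fold higher in *sef1*Δ*aft1*Δ than in WT at low iron (fitted log2 difference 6.95, adjusted p = 1.82e-14) and at least 28.8-fold higher in *aft1*Δ (5.17, adjusted p = 6.08e-12). In *sef1*Δ it was well above background on no array, which is at least 4.53-fold lower than WT at high iron (adjusted p = 5.83e-06) and at least 1.8-fold lower at low iron (adjusted p = 0.00127), the second not called with the other probe. A bound sets the bright group's mean against the higher of the probe's own signal and the lowest signal well above background, array by array. Low iron raised the gene 18.5-fold in *sef1*Δ*aft1*Δ (4.21, adjusted p = 3.02e-09) and 3.79-fold in *aft1*Δ (1.92, adjusted p = 0.00272), against −0.34 in WT (adjusted p = 0.64). The interactions were 4.55 (adjusted p = 1.08e-06) and 2.26 ± 0.59 (adjusted p = 0.0143).

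SAKL0B12606g, at the opposite end of the same chromosome (rank 10), had low-iron signals of −1.09, −2.30, −1.69 and −1.01 in *sef1*Δ*aft1*Δ, −3.70, −4.15, −3.99 and −4.72 in *aft1*Δ, and −8.48, −8.01, −7.52 and −8.32 in *sef1*Δ, against −7.48, −7.80, −7.56 and −6.95 in WT. At high iron the range was −6.52 to −5.86 in *sef1*Δ*aft1*Δ, −6.22 to −5.82 in *aft1*Δ and −8.07 to −7.06 in *sef1*Δ, against −7.36 to −7.06 in WT. The strains without *AFT1* again lay above WT, and the double mutant at low iron lay above all other groups. In WT at low iron 1 of 4 arrays was well above background. SAKL0B12606g was at least 39.4-fold higher in *sef1*Δ*aft1*Δ than in WT at low iron (fitted 5.93, adjusted p = 1.02e-17) and at least 6.42-fold higher in *aft1*Δ (3.31, adjusted p = 2.29e-12). Its iron response was 4.66 in *sef1*Δ*aft1*Δ (25.3-fold, adjusted p = 1.14e-14) and 1.82 in *aft1*Δ (adjusted p = 9.35e-06). The interaction was 4.90 in *sef1*Δ*aft1*Δ (adjusted p = 3.32e-11, and 3.16 with the other probe) and 2.06 ± 0.37 in *aft1*Δ (adjusted p = 0.00034), which the other probe did not call (0.42). Both interactions use those WT arrays, so their sizes are uncertain.

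SAKL0B00286g (left end of B, rank 9) had low-iron signals of −3.88, −4.84, −4.67 and −3.31 in *sef1*Δ*aft1*Δ and −5.08, −5.31, −4.75 and −5.08 in *aft1*Δ, and no WT array was well above background. It was at least 7.16-fold higher in *sef1*Δ*aft1*Δ (adjusted p = 3.5e-13) and at least 3.89-fold higher in *aft1*Δ (adjusted p = 1.17e-11) than in WT. At high iron the WT signals were −8.51, −8.91, −8.66 and −8.89, 3 of the 4 well above background, and *sef1*Δ*aft1*Δ was higher by 3.56 (11.8-fold, adjusted p = 5.57e-10) and *aft1*Δ by 2.18 (4.54-fold, adjusted p = 1.95e-06). SAKL0B12804g (right end of B, rank 2), a gene with no similarity, was at least 4.28-fold higher in *sef1*Δ*aft1*Δ (fitted 2.62) and at least 2.61-fold higher in *aft1*Δ (1.90) at low iron, where 1 of 4 WT arrays was well above background. At high iron it was higher by 2.13 in *sef1*Δ*aft1*Δ and by 1.85 in *aft1*Δ. SAKL0B12694g (right end of B, rank 6) was higher by 1.44 and 1.93 at low iron in the same strains and lower by 0.75 in *sef1*Δ (adjusted p = 0.000219).

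A pair of neighbors at the right end of D had the same order of strains at low iron. For SAKL0D15224g (rank 7, no similarity) the low-iron signals were −2.39, −3.15, −2.92 and −1.61 in *sef1*Δ*aft1*Δ, −5.12, −5.26, −5.43 and −5.74 in *aft1*Δ, and −9.35, −9.55, −9.28 and −9.73 in *sef1*Δ, against −7.48, −5.79, −7.13 and −5.69 in WT. The double mutant lay highest, *aft1*Δ was higher than WT but reached into its range at −5.74, and *sef1*Δ was well above background on no array. With 2 of 4 WT arrays well above background, the gene was at least 14.1-fold higher in *sef1*Δ*aft1*Δ than in WT (fitted 4.01, adjusted p = 9.3e-12) and at least 2.14-fold lower in *sef1*Δ (adjusted p = 9.31e-09). For SAKL0D15202g (rank 8) the low-iron signals were −2.54, −3.82, −3.22 and −2.87 in *sef1*Δ*aft1*Δ, −5.0, −4.86, −5.01 and −5.04 in *aft1*Δ, and −7.13, −7.24, −6.61 and −7.91 in *sef1*Δ, against −6.26, −6.47, −6.78 and −5.91 in WT. Here *aft1*Δ lay above every WT array and *sef1*Δ overlapped WT at −6.61. SAKL0D15202g was 9.49-fold higher in *sef1*Δ*aft1*Δ (3.25 ± 0.22, adjusted p = 2.33e-13) and 2.6-fold higher in *aft1*Δ (1.38, adjusted p = 2.37e-06) than in WT. The *sef1*Δ*aft1*Δ interactions were 3.03 for SAKL0D15224g (adjusted p = 1.02e-05) and 2.26 for SAKL0D15202g (adjusted p = 2.67e-06).

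**Figure D4:**
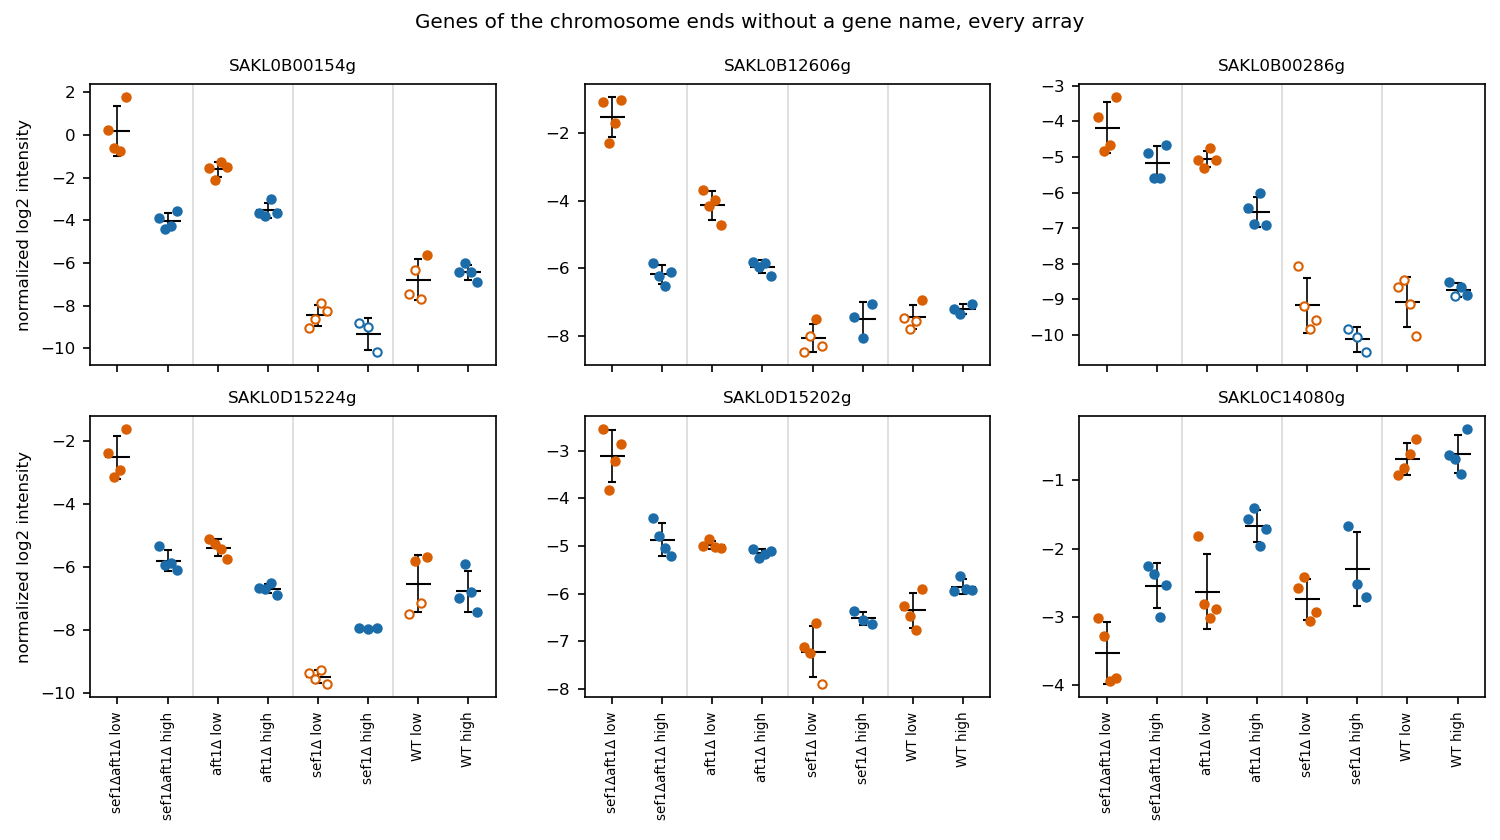
Normalized signal (log2 of intensity over the array's 75th percentile) on each array for 6 end genes without a gene name, with low iron in orange, high iron in blue, bars for the mean ± SD, and open circles for spots not well above background. In 5 of them *sef1*Δ*aft1*Δ at low iron lies above all WT arrays, and in SAKL0C14080g every mutant lies below WT.

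Of the end genes with a larger iron response in the double mutant than in WT, *ADH5* (SAKL0H00374g, left end of H, rank 5), weakly similar to an alcohol dehydrogenase gene, was measured on every array. Its *sef1*Δ*aft1*Δ signals were 0.10, −0.02, 0.12 and 0.83 at low iron, against −2.24, −2.01, −2.13 and −2.0 at high iron. In WT they were −0.99, −0.82, −0.72 and −1.16 at low iron, against −1.38, −1.36, −1.35 and −1.48 at high iron. Low-iron arrays lay above high-iron arrays in both strains, but the gap was wider in the double mutant, where it was 5.12-fold (2.36 ± 0.13, adjusted p = 6.96e-15). The interaction was 1.89 ± 0.18 (adjusted p = 2.62e-09). The double mutant's low-iron array at 0.83 lay apart from its others, at −0.02 to 0.12, and this gene was not in the outlier test below. *ADH5* was therefore higher than WT by 1.18 at low iron (adjusted p = 3.39e-09) and lower by 0.70 at high iron (adjusted p = 2.4e-05, −0.36 and not called with the other probe). Among genes of chromosomes B to H the share with a higher interaction in *sef1*Δ*aft1*Δ was 18.3% at ranks 1 to 5, 14.7% at ranks 6 to 10, 7.14% at ranks 11 to 20, 3.37% at ranks 21 to 50 and 6.55% farther inside. For genes measured on every array these shares were 18.6%, 9.68%, 6.06%, 3.41% and 6.46%. The shares with a lower interaction had no such order, with 10%, 5.88%, 10.7%, 8.65% and 6.7% of all genes in these bins. A slide offset cancels in these shares.

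The mutants were also set against each other at low iron, a comparison that holds no WT array and was added after the values were seen. Against *sef1*Δ, 62 end genes were called in *sef1*Δ*aft1*Δ, 59 higher and 3 lower, where 19.7% of all genes were called. The share of end genes higher was 46.1%, against 12.3% of all genes (7.34% of all genes were lower), and the median was 0.55 against 0.05. Against *aft1*Δ 53 were called in *sef1*Δ*aft1*Δ, 40 higher and 13 lower, with 26.4% of all genes called (13.2% in each direction). For *aft1*Δ against *sef1*Δ 53 were called, 42 higher and 11 lower, with 26.3% of all genes called (17.2% higher, 9.14% lower). Each mutant still lay on a slide of its own. SAKL0B00154g was at least 222-fold higher in *sef1*Δ*aft1*Δ than in *sef1*Δ (adjusted p = 1.65e-16), SAKL0D15224g at least 34.4-fold, and *ARN4* was higher by 3.18 (adjusted p = 1.38e-13). *SUC2* went the other way against *aft1*Δ, being 19.5-fold lower in *sef1*Δ*aft1*Δ (−4.28, adjusted p = 4.45e-14).

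Grouped by annotation note, no class was tested, and counts are for low iron against WT. The notes come from tables of genes that the study selected in part by their changes, so classes with notes hold more called genes by construction. In *sef1*Δ*aft1*Δ (18% of all genes higher, 13.5% lower) the 15 genes with no annotated similarity had 10 higher and 1 lower, the 14 similar to other proteins 3 and 2, the 8 transporters outside iron and sugar 3 and 0, the 5 cell surface genes 1 and 1, the 4 sugar genes 1 and 2, and the 4 genes whose note mentions iron 2 and 1. In *aft1*Δ (22.1% of all genes higher, 18.9% lower) the counts in the same order of classes were 7 and 3, 2 and 4, 1 and 3, 1 and 2, 3 and 0, and 2 and 1. In *sef1*Δ (10.2% higher, 11.4% lower) they were 0 and 8, 1 and 3, 0 and 5, 0 and 1, 0 and 2, and 0 and 2, so each of the classes listed had more genes lower than higher in that strain. Not listed are the 2 genes noted as oxidoreductases and the 1 noted as a regulator. The oxidoreductases had 2 higher and 0 lower in *sef1*Δ*aft1*Δ, 1 and 0 in *aft1*Δ, and 1 and 1 in *sef1*Δ. The regulator was higher in *sef1*Δ*aft1*Δ and *aft1*Δ and not called in *sef1*Δ. The 75 genes with no annotation in the tables had 23 higher and 12 lower in *sef1*Δ*aft1*Δ, 19 and 17 in *aft1*Δ, and 8 and 21 in *sef1*Δ.

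Of 17 silencing factors known from *S. cerevisiae*, 8 could be found by name, *SIR2*, *ORC1*, *SAS4*, *RIF1*, *RIF2*, *HST4*, *SUM1* and *TUP1*. None of them was called in *sef1*Δ against WT or in the WT iron response. *SIR2* (SAKL0C08602g), which encodes a histone deacetylase, was lower in *sef1*Δ*aft1*Δ by 0.83 and in *aft1*Δ by 0.65 at low iron (adjusted p = 1.96e-08 in *aft1*Δ). In *sef1*Δ *SIR2* had a log2 fold change of −0.34, with an adjusted p of 0.000549 and a size under the 1.5-fold limit. *HST4*, which encodes another deacetylase of the same family, fell by 1.49 in *sef1*Δ*aft1*Δ under low iron (adjusted p = 1.03e-09), and its interaction was −1.57. Against WT it was lower by 0.81 in the double mutant at low iron (adjusted p = 2.95e-05) and higher by 0.76 at high iron (adjusted p = 3.09e-05). *TUP1*, a corepressor gene on chromosome A, was higher in *aft1*Δ by 0.93 at low iron and 1.04 at high iron. The part of these factors in the changes at the chromosome ends was not tested.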

How the data were processed

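RNA of 31 cultures was hybridized in 1 color to Agilent arrays. The authors deposited the background-subtracted intensity of each spot from Agilent Feature Extraction (version 10.5.1.1), with the median signal, local background and spot marks, and a table of log2 values set to the 75th percentile. From the intensities, spots marked as non-uniform outliers were removed (0 to 370 per array) and the log2 was set relative to the 75th percentile of the array, following the methods. The deposited log2 values were an alternative. A gene's probe was that of the authors' best probe list where the part given here (1999 rows) holds it (44 end genes), otherwise that of a table filtered on the list (25), otherwise the probe of higher mean signal (59), which matched the list for 2500 of 2738 genes with 2 probes. No genome was used.

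One limma 3.58.1 model (R 4.3.3) with a mean for each of 8 groups was fitted to all 31 arrays and 5316 genes, with Benjamini-Hochberg adjustment over all genes. A call needed a 1.5-fold change and an adjusted p no higher than 0.05. Steps were tested on simulated data with 200 changed genes. Files were prepared and plots drawn with Python 3.11.15, pandas 2.3.3 and matplotlib 3.10.9. The alternatives were the methods' t-test, only the arrays compared, a replicate block, quantile normalization, the array median, the chromosome median, normexp with an offset of 50 (on the median signal, since the files hold that and not the mean), the authors' log2 table, marked spots kept, dim probes filtered, the other probe, 10 genes at each end after leaving out cross-hybridizing ones (140 genes), and each array left out. The deviations of low-iron and high-iron arrays with the same replicate number correlated in *sef1*Δ*aft1*Δ (0.248 to 0.533), *aft1*Δ (0.125 to 0.286) and WT (0.122 to 0.480). In *sef1*Δ they did not throughout (−0.0938 to 0.222). The replicate number was also the slide column in every group, so paired cultures and column cannot be told apart. Arrays of *sef1*Δ and WT at high iron with the same number, on different slides, had 0.133 to 0.296.

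Genes were named by rule: the 5 largest rises and falls called in each comparison, genes called in at least 6 of 13 comparisons, and those annotated as iron genes. Values are given array by array for those called in at least 9 and for the iron genes. They are also given for *ADH5* and SAKL0H00176g, which were called in 8 and 4 comparisons and fall outside that rule. Other genes named for their annotation, or beside another, were chosen after their values were seen. The members and lists were chosen with earlier results of these data known.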

Additional observations from a re-analysis of the deposited data

Results flagged for a closer look

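Dixon's test was run on 75 groups of 4 arrays, of genes called in at least 9 comparisons and of measurable iron genes. *ADH5* and SAKL0H00176g, also given array by array, were not tested. In 5 of the 75 groups 1 array lay farther from the others than the limit, and chance does so in about 1 of 20 groups. They were *FET2* in *sef1*Δ at low iron (−4.20 on replicate 1, nearest −5.37) and in *aft1*Δ at high iron (−1.65 on replicate 4, nearest −1.26), SAKL0H26180g in *sef1*Δ at low iron (−3.53 on replicate 1, nearest −4.44), SAKL0C14080g in *aft1*Δ at low iron (−1.82 on replicate 1, nearest −2.81) and SAKL0D15202g in WT at high iron (−5.62 on replicate 2, nearest −5.91). *FET2* and SAKL0H26180g are neighbors, and the array apart from the others was the same one.

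The iron response differed from that of WT, by the interaction test, for 31 combinations of a strain and a gene, not counting genes with a group in which no array was well above background. Signs are those of the mutant's low-against-high difference minus that of WT. In *sef1*Δ these were *FET2* (−2.22), SAKL0H26180g (−1.93), SAKL0G19910g (−1.32) and SAKL0B12694g (−0.94). In *aft1*Δ the interaction was positive for SAKL0B00154g (2.26), SAKL0B12606g (2.06), SAKL0C00110g (1.21), *ADH4* (0.89) and *YNR029C* (0.82). It was negative for *HXT2* (−1.49), *POT1* (−1.15), *ARN4* (−0.96) and SAKL0F16676g (−0.75).

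In *sef1*Δ*aft1*Δ it was positive for SAKL0B12606g (4.90), SAKL0B00154g (4.55), SAKL0D15224g (3.03), SAKL0D15202g (2.26), SAKL0B12760g (1.96), *ADH5* (1.89), SAKL0C14058g (1.64), SAKL0C00110g (1.51), SAKL0D00198g (0.93), *ADH4* (0.69) and SAKL0G00352g (0.59). It was negative for *FET2* (−2.40), SAKL0H26180g (−2.10), *SUC2* (−2.08), *HXT2* (−1.11), SAKL0C14080g (−0.92), *ARN4* (−0.80) and SAKL0D15158g (−0.76). The interaction of SAKL0C14058g turned negative with the other probe. In WT at low iron 1 of 4 arrays was well above background for SAKL0B00154g, SAKL0B12606g and SAKL0B12760g and 2 of 4 for SAKL0C00110g and SAKL0D15224g, so the sizes for these genes are uncertain.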

How the results depend on the processing

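Of 275 calls of named genes, 241 remained with quantile normalization, 256 with the array median, 268 with each chromosome's median, 238 with normexp, 265 with the authors' log2 table, 265 with marked spots kept, 265 with only the arrays compared and 181 with the other probe of the gene. The methods' t-test kept 223 of 241 calls without adjustment and 200 after Benjamini-Hochberg, and was not run for the interactions. Filtering dim probes kept 273 of 273. The probe was thus the choice that changed most calls. The replicate block kept 275 of 275. With it the *aft1*Δ interaction called 6 end genes higher and 7 lower, against 6 and 4 without, and no other count of end genes called in a direction moved by over 1.5 times. Leaving out single arrays kept 2223 of 2428 calls. For low against high iron, the count of end genes called was 8 (*sef1*Δ, methods' t-test after adjustment), 10 (*sef1*Δ, other probe) and 7 (WT, normexp). With only genes measured on every array it was 11 in *sef1*Δ (10.5%, against 5.68% of all such genes) and 9 in *aft1*Δ (8.57%, against 3.21%). In *sef1*Δ*aft1*Δ against WT at high iron it was then 30 (28.6%, against 26.4%), and for the *aft1*Δ interaction 6 (5.71%, against 5.55%). Both of these were near the share of all such genes. Without chromosome B the iron response in *aft1*Δ had 11 calls (10%, against 3.25%). These last settings were chosen after the data were seen. With single arrays left out, the counts for low against high iron were 27 to 31 in *sef1*Δ*aft1*Δ, 14 to 17 in *aft1*Δ, 10 to 18 in *sef1*Δ and 8 to 13 in WT. Against WT at low iron they were 59 to 65, 62 to 67 and 49 to 55 in *sef1*Δ*aft1*Δ, *aft1*Δ and *sef1*Δ, at high iron 44 to 49, 51 to 55 and 35 to 41, and for the interactions 25 to 30, 7 to 13 and 2 to 8. Quantile normalization turned the split of iron calls to 3 higher and 6 lower in WT (2.35% and 1.88% of all genes). It gave 4 and 9 in *sef1*Δ (3.03% and 2.54%), and 1 and 4 for the *sef1*Δ interaction (1.49% and 1.11%). With the other probe the split was 12 and 2 for iron in WT (3.32% and 2.06% of all genes). It was 4 and 7 for the *aft1*Δ interaction (2.24% and 3.77%).

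These values changed sign, and the cause was not tested. With the authors' log2 table and with marked spots kept, SAKL0C14014g against WT at low iron was −1.48 in *aft1*Δ as in *sef1*Δ. With the other probe it was −0.080 in *sef1*Δ*aft1*Δ and −0.43 in *sef1*Δ. Also with the other probe, SAKL0B00286g was 1.72 for low against high iron in WT and −0.16 and −1.05 for the *aft1*Δ and *sef1*Δ*aft1*Δ interactions, SAKL0B12606g was 1.49 for iron in WT and 1.75 in *sef1*Δ against WT at high iron, and SAKL0C14058g was −0.22 for iron in *sef1*Δ*aft1*Δ and −0.17 for its interaction. *ARN4* in *aft1*Δ against WT was 0.018 at low and 0.22 at high iron, and *FLO9* in *sef1*Δ*aft1*Δ at low iron was −0.18. At high iron, SAKL0B12804g was 0.52 and SAKL0D15202g 0.050 in *sef1*Δ, *POT1* was 0.34 in *sef1*Δ*aft1*Δ, and SAKL0G00110g was 0.38 in *sef1*Δ, 0.30 in *sef1*Δ*aft1*Δ and 0.42 in *aft1*Δ. Genes not well above background in a group give only bounds there.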

Other observations

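The 12 genes at the chromosome ends with only cross-hybridizing probes were left out of every count above, because their signal may come from a second gene. For 11 of them the partner named in the probe is itself among the 140 outermost genes, and for 3 the partner is one of the 128 genes described. *FET4* (SAKL0B00308g, left end of B) and *FET1* (SAKL0H00132g, left end of H) are each other's partner. Their probes gave log2 differences for low against high iron of 0.57 and 0.57 in *sef1*Δ*aft1*Δ, 0.01 and −0.05 in *aft1*Δ, 1.98 and 2.03 in *sef1*Δ, and 1.93 and 1.70 in WT. The probe of *IMA5* (SAKL0C00176g, left end of C), named for an isomaltase, was higher in *aft1*Δ than in WT by 3.55 at low and 3.22 at high iron, and lower by 1.31 in *sef1*Δ*aft1*Δ and by 1.24 in *sef1*Δ at low iron. SAKL0E00176g and SAKL0F00132g, which are partners of each other, rose at low iron in WT by 0.82 and 0.66 and had interactions of −0.94 and −0.98 in *aft1*Δ.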
